A study of Homo sapiens with 9 samples.

Results

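Transcripts of immunoglobulin and T cell receptor genes were measured in HAL-01 cells, a human B cell acute lymphoblastic leukemia line with the t(17;19) translocation and the fusion transcription factor TCF3::HLF. The members were all genes with an immunoglobulin or T cell receptor type in GENCODE release 44, pseudogene types left out, that held 20 or more estimated counts summed over the 9 libraries. They were 15 of 411 such genes, and of 62700 genes in all. Membership was set by the measured level over all libraries together, so a gene near the limit could pass through the group with more libraries.

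All 9 libraries came from cells that stably expressed Cas9 and GFP, and all were collected on day 13 after a guide RNA was introduced. The guides sgRNA_96 and sgRNA_97 target an HLF motif in a MEF2C enhancer that TCF3::HLF binds (MEF2C-enhancer KO), and SCR1 was a scrambled guide. There were 3 replicates of each guide, numbered 1, 3 and 4. All replicates derive from 1 cell line, and neither the labels nor the methods say whether they were separate transductions, so p-values measure the spread between these samples, which may be technical.

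Antigen receptor genes are assembled in developing lymphocytes. The recombinase RAG1 with RAG2 cuts beside V, D and J segments at recombination signals, and the end joining machinery ligates the cut segments, so that an assembled V(D)J exon is spliced to a constant (C) region. In a B cell precursor the heavy chain mu is built first and pairs with the surrogate light chain, made of the VPREB1 and IGLL1 products, before a kappa or lambda light chain replaces it. Segments that have not been assembled can also be transcribed, as can C regions without a V segment.

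Library totals ranged from 15212462 to 29777361 estimated counts, and the members held between 0.0268% and 0.032% of them. Levels are given as CPM, counts per 1000000, scaled by the trimmed mean of M values (TMM). MEF2C, the gene whose enhancer was targeted, measured 536 to 560 CPM in SCR1, 495 to 510 in sgRNA_96 and 495 to 553 in sgRNA_97. Its log2 fold change over both guides was -0.12 ± 0.04 (SE), and the Benjamini-Hochberg adjusted p of edgeR's quasi-likelihood test was 0.0620. The highest sgRNA_97 library, replicate 1, lay within the SCR1 range. All 8 B lineage markers listed averaged at least 1 CPM, and of 8 T cell markers none did, with CD3D, CD3E, CD3G and CD5 at 0 in every library.

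Heavy chain genes supplied most of the antigen receptor RNA. IGH genes held 82.3% of the members' 51132 counts, TRA 16.4%, IGL 0.935%, TRG 0.28% and an orphon, a V gene outside the receptor loci, 0.057%. No IGK, TRB or TRD gene reached the limit. By class, 6 C genes held 91.5% of the counts and 9 V genes held 8.50%, and no D or J gene was a member. The D models have a median length of 20 bases and the J models of 60 bases, shorter than the sequenced reads, so a low count of a D or J model says little on its own.

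Of the 411 genes, 367 had no counts and 29 had some but fewer than 20. The members just inside the limit were IGLC3 with 26.5 counts, IGHV1-69D with 28.0, IGKV1OR2-108 with 29, TRGV3 with 48 and IGHV1-69 with 51.0. Just outside it were IGHV3-30 with 19, IGHV4-31 with 17, TRGV9 with 16, IGHG3 with 13, and TRGV8 and IGHV3-74 with 10 each. These genes form a continuous low range around the limit. Summed over the KO libraries and over SCR1, IGKV1OR2-108 held 25 and 4 counts, and IGHV1-69D 21.0 and 7. TRGV3 held 37 and 11 and IGHV1-69 39.97 and 11, so these genes passed the limit through their KO counts. IGLC3 went the other way, with 9.62 and 16.8.

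The tested V genes are shown first with the recombination signal that lies 3′ of each, the sequence at which RAG1 and RAG2 cut. All are from the hg38 genome, 5′ to 3′ on the strand of the gene, with the heptamer and the nonamer in capitals and the spacer in lower case. The signals lie at chr14:106506957-106506995 on the minus strand for IGHV1-45, chr14:106627210-106627248 (minus) for IGHV4-59, chr14:106790653-106790691 (minus) for IGHV3-72, chr22:22319227-22319265 (plus) for IGLV5-52 and chr7:38349316-38349354 (minus) for TRGV5.
IGHV1-45: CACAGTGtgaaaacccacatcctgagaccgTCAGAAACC
IGHV4-59: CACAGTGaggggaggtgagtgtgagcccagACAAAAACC
IGHV3-72: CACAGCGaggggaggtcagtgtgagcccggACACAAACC
IGLV5-52: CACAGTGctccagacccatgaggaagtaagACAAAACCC
TRGV5: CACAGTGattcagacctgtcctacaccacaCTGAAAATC

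Each was compared with the heptamer CACAGTG and the nonamer ACAAAAACC on the strand of the gene, starting within 3 bases of the end of the V model. IGHV4-59 carried both without a mismatch. IGHV3-72 had 1 mismatch in each element, IGHV1-45 had 2 in the nonamer and none in the heptamer, and TRGV5 had 4 in the nonamer. All 9 member V genes had a signal that began with CAC, against 237 of 252 annotated V genes (94.0%). The exact heptamer was present in 8 of the 9 members and in 155 of the 252 (61.5%). Among the 49 IGHV genes it was present in 35 (71.4%). A match to these letters is a description of the germline sequence and carries no measurement of cutting.

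The heavy chain constant genes IGHM and IGHD did not pass the test in MEF2C-enhancer KO, and IGHM was the most abundant member. IGHM, the mu constant region (chr14:105851705-105856218, minus strand), encodes the C region of the first heavy chain made by a B cell precursor. It measured 209, 185 and 192 CPM in SCR1, 224, 202 and 191 in sgRNA_96, and 181, 184 and 218 in sgRNA_97. The groups overlapped throughout. The log2 fold change of both guides against SCR1 was 0.03 ± 0.07 (SE, adjusted p = 0.774). Every adjusted p here is from edgeR's quasi-likelihood test, adjusted after Benjamini-Hochberg over all genes tested.

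IGHD, the delta constant region (chr14:105836765-105845677), lies 6.0 kb downstream of IGHM and is reached by alternative splicing of the same primary transcript. It measured 17.5 to 20.2 CPM in SCR1 and 17.4 to 21.97 in the KO libraries, and its log2 fold change was 0.05 ± 0.09 (SE, adjusted p = 0.758). The downstream switched isotypes were close to absent, with IGHG3 at 13 counts and IGHG1, IGHA1 and IGHE at 0 over all 9 libraries. A count of 0 allows up to 0.0172 CPM, taking 3 counts over all libraries as the limit.

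The mu chain is made as a membrane or a secreted form, depending on which 3′ end the transcript uses. The transcript that ends in the membrane exons codes for the hydrophobic tail that anchors the chain, and the other carries the secretory tail, so the coding stretches that separate both are shown, without the untranslated ends. The main membrane stretch lies at chr14:105852148-105852263 and the secretory stretch at chr14:105854346-105854404, both on the minus strand of hg38.
Membrane exon: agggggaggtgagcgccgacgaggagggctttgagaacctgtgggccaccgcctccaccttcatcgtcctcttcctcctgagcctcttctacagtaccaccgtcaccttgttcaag
Secretory tail: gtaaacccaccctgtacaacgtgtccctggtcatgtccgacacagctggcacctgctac

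Salmon assigned most IGHM counts to the membrane form in every library. Its share was 61.2%, 58.4% and 65.1% in SCR1, 60.8%, 61.3% and 60.5% in sgRNA_96, and 62.1%, 65.0% and 63.6% in sgRNA_97. The mean was 61.5% ± 3.39 (SD, n = 3) in SCR1 and 62.2% ± 1.77 (SD, n = 6) in the KO libraries. The difference of 0.676 percentage points was smaller than the spread among the SCR1 libraries, and the exact two-sided permutation test over 84 arrangements of the libraries gave p = 0.738, where the smallest p it allows is 0.0238. IGHM was the only member with more than 1 annotated transcript, so 1 share was tested. Salmon divides reads from the common exons by likelihood, so the share is an estimate.

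Among the 10 members that passed the filter on low counts, 2 rose and 2 fell in MEF2C-enhancer KO. The V genes IGHV3-72 and IGHV4-59 rose, and the constant genes TRAC and IGLC2 fell. Over all 14436 genes tested, 10.1% were called higher and 10.6% lower, and IGHV4-59 and IGLC2 passed the filter only through the group in which they were higher, so nothing is read from the 4 calls among 10 genes. Their median log2 fold change was 0.04, beside 0.0028 over all genes. In 2 tested members every KO library lay above every SCR1 library and in 1 every KO library lay below, where KO and SCR1 values did not overlap in 20.3% of all genes. The plot of CPM by library shows these groups side by side.

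**Figure D1:**
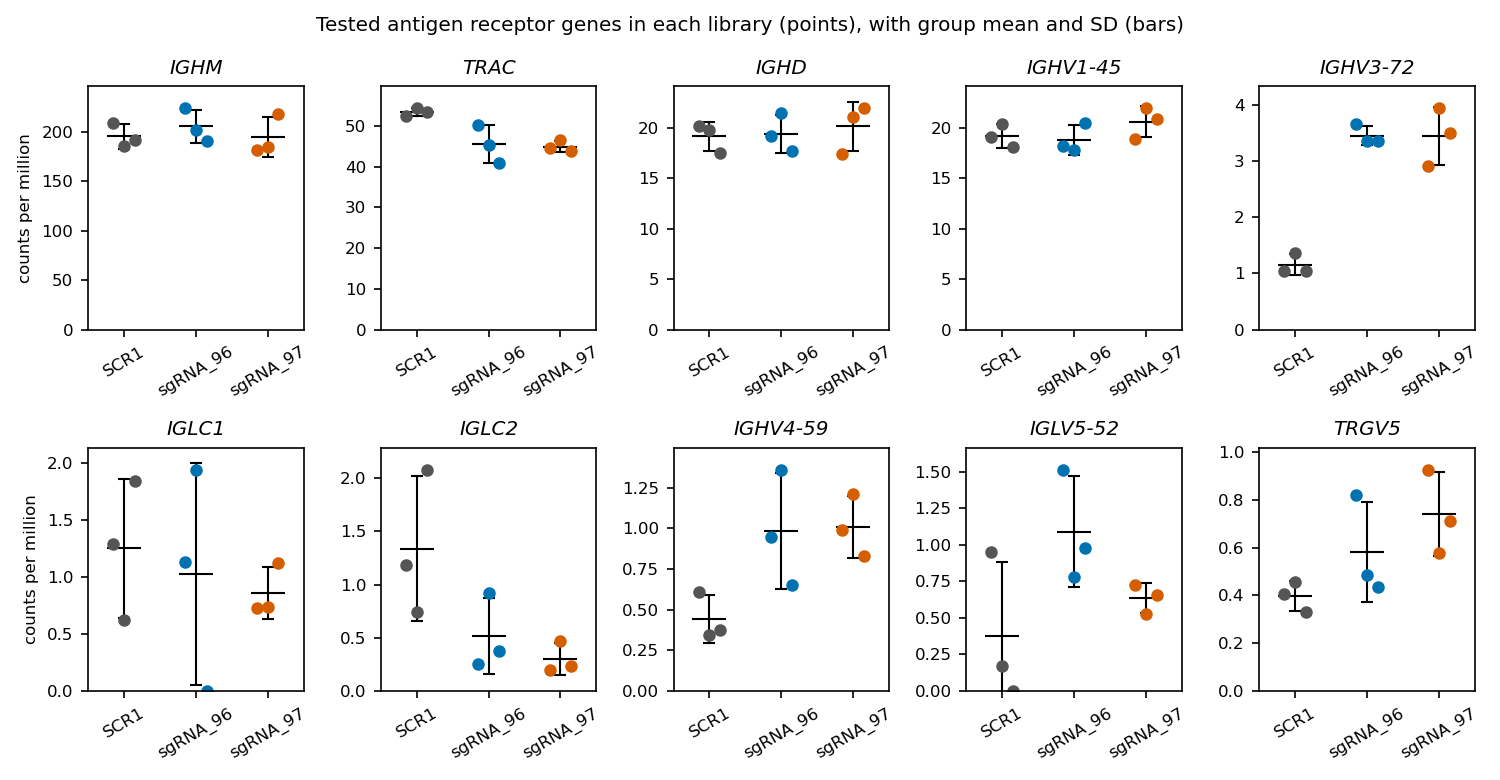
CPM (vertical axes, from 0) of the 10 tested antigen receptor genes in each library, grouped by guide on the horizontal axis. Points are libraries, and bars give the mean and SD of each group of 3. The 6 KO points of IGHV3-72 and IGHV4-59 lie above the SCR1 points, those of TRAC lie below, and the groups overlap for IGHM, IGHD and IGHV1-45.

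IGHV3-72 (chr14:106790694-106791233, minus strand) changed most clearly. It encodes a heavy chain variable segment and its counts were whole numbers, with no same-strand or antisense gene overlapping it. The estimated counts were 31, 24 and 22 in SCR1, 58, 69 and 62 in sgRNA_96, and 44, 75 and 59 in sgRNA_97. In CPM these were 1.05, 1.37 and 1.04 in SCR1, 3.66, 3.36 and 3.36 in sgRNA_96, and 2.91, 3.95 and 3.50 in sgRNA_97. The lowest KO library was more than the highest SCR1 library by a clear gap. The gene rose 3.02-fold (log2 fold change 1.59 ± 0.21, SE, adjusted p = 9.99e-05).

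Both guides gave the same size of change for IGHV3-72. The log2 fold change was 1.59 ± 0.24 (SE, adjusted p = 0.000745) for sgRNA_96 and 1.59 ± 0.24 (SE, adjusted p = 0.000646) for sgRNA_97. These comparisons have the SCR1 libraries in common. The direct difference of sgRNA_97 against sgRNA_96 was 0.00 ± 0.23 (SE, unadjusted p = 0.987).

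IGHV4-59 (chr14:106627249-106627825, minus strand), another heavy chain variable segment, was lower in level and rose by less. It held 18, 6 and 8 counts in SCR1, 15, 28 and 12 in sgRNA_96, and 15, 23 and 14 in sgRNA_97. In CPM this was 0.611, 0.342 and 0.378 in SCR1, 0.946, 1.36 and 0.651 in sgRNA_96, and 0.993, 1.21 and 0.831 in sgRNA_97. The groups did not overlap, though sgRNA_96 replicate 4 came close to SCR1 replicate 1. The rise was 2.18-fold (log2 fold change 1.13 ± 0.37, SE, adjusted p = 0.0399). The call was lost when any 1 of the SCR1 libraries, sgRNA_96 replicate 3, sgRNA_97 replicate 1 or sgRNA_97 replicate 3 was left out, with adjusted p from 0.0514 to 0.154. It was also lost without the filter on low counts (adjusted p = 0.0931), which asks for about 0.548 CPM in 3 libraries. IGHV4-59 met that level in all 6 KO libraries and in 1 of 3 SCR1 libraries, so it was tested by way of the group in which it was higher.

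IGHV1-45 was the most abundant V gene and did not pass the test. This segment (chr14:106506996-106507491, minus strand) measured 19.1, 20.4 and 18.1 CPM in SCR1, 18.2, 17.8 and 20.5 in sgRNA_96, and 18.9, 21.9 and 20.9 in sgRNA_97. The groups overlapped, and the log2 fold change was 0.04 ± 0.08 (SE, adjusted p = 0.783). It overlaps the noncoding gene LINC00221 on the opposite strand. Whether the counting used strand is not given in the sources used here, so reads of the gene and of its antisense partner may not be separated.

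IGHV1-69 and IGHV1-69D, near-identical copies with 98.3% sequence identity, were too low to test and their reads were divided between them. IGHV1-69 ranged from 0 to 0.285 CPM in SCR1 and from 0 to 0.831 in the KO libraries, and IGHV1-69D from 0 to 0.331 and from 0 to 0.438. Summed, the copies measured 0.204, 0.285 and 0.331 CPM in SCR1 and between 0.380 and 0.831 in the KO libraries, with a KO median of 0.557. The summed values did not overlap between the groups, where KO and SCR1 values did not overlap in 20.3% of all genes tested. Both copies also passed the 20-count limit through their KO counts, as given above. The summed values are given as a description, without a test.

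The most counted V models lay in the distal part of the heavy chain locus. Of 126 IGHV models, pseudogenes included, 22 had any count and 6 had 20 or more. These 6 lay between 651 and 995 kb from IGHM, where the models span 83.5 to 1023 kb. IGHV4-59 lay 771.0 kb from IGHM and IGHV3-72 lay 934.5 kb away. The pseudogene IGHV5-78, 994.9 kb from IGHM and outside the member rule, measured 2.03 to 3.53 CPM in SCR1 and 2.55 to 3.44 in the KO libraries, with a log2 fold change of 0.12 ± 0.20 (SE, adjusted p = 0.711). Called and uncalled V models both lay in this stretch.

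**Figure D2:**
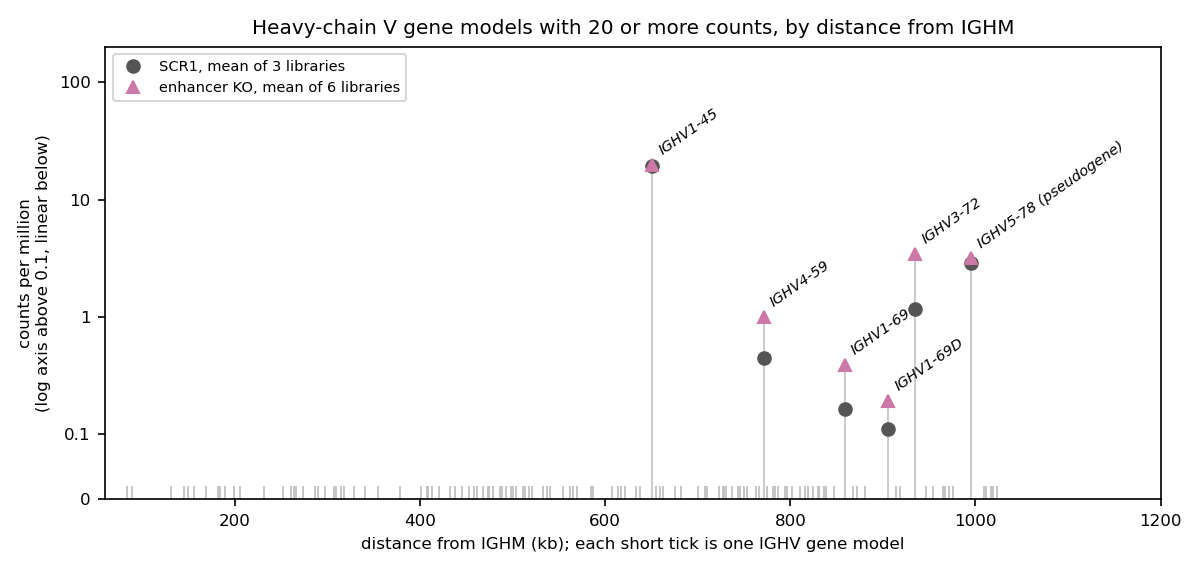
Mean CPM of the heavy chain V models with 20 or more counts (vertical axis, log above 0.1 and linear below) against distance from IGHM in kb. Circles are SCR1 (3 libraries), triangles MEF2C-enhancer KO (6 libraries), and short ticks mark each of the 126 models. The labelled models lie 651 to 995 kb away, with a clear gap between the groups at IGHV3-72 and almost none at IGHV1-45 and IGHV5-78. The triangles also lie above the circles at the low models IGHV4-59, IGHV1-69 and IGHV1-69D.

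Per unit of length the V genes stood closer to IGHM than the counts show. This did not hold for every constant gene. IGHV1-45 and IGHD held similar counts over the 9 libraries, 3388 and 3418, and stood far apart per unit of length. In TPM, which divides by transcript length and scales each library to a total of 1000000, IGHM stood at 179 ± 13.9 (SD, n = 9), IGHV1-45 at 105 ± 8.94, TRAC at 76.7 ± 7.19, IGHD at 16.8 ± 1.52 and IGHV3-72 at 13.1 ± 5.81. IGHM exceeded IGHV1-45 by 1.71 ± 0.203 times (SD over 9 libraries) on this scale. Next came IGLC1 at 4.69 ± 2.72, IGLV5-52 at 4.34 ± 2.72, IGHV4-59 at 3.24 ± 1.38, IGLC2 at 3.21 ± 2.697 and TRGV5 at 1.94 ± 0.686. The first 3 did not overlap one another in any library. The order of the lower levels was not the same in both groups: IGLC2 ranged from 3.26 to 9.23 TPM in SCR1, above all values of IGHV4-59 there (1.39 to 2.40), and averaged 1.86 in the KO libraries, where IGHV4-59 averaged 3.99. IGHD and IGHV3-72 overlapped in the KO libraries, where IGHV3-72 ranged from 13.98 to 19.03 TPM and IGHD from 14.8 to 19.1, while in SCR1 they ranged from 4.99 to 6.74 and from 14.7 to 17.3. The other 5 members averaged between 0.615 TPM (IGLC3) and 1.69 (IGHV1-69).

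TRAC was the main T cell receptor gene and fell by a small amount. It encodes the alpha chain constant region (chr14:22547506-22552156, plus strand). It measured 52.5, 54.4 and 53.4 CPM in SCR1, 50.3, 45.3 and 41.0 in sgRNA_96, and 44.5, 46.6 and 43.8 in sgRNA_97. Every KO library lay below every SCR1 library, with sgRNA_96 replicate 1 nearest to them. TRAC fell to 0.847 times the control level (log2 fold change -0.24 ± 0.06, SE, adjusted p = 0.00994).

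By guide, the log2 fold change of TRAC was -0.23 ± 0.07 (SE, adjusted p = 0.0512) for sgRNA_96 and -0.25 ± 0.07 (SE, adjusted p = 0.0329) for sgRNA_97. The guides differed by -0.02 ± 0.07 (SE, unadjusted p = 0.836), so the call in 1 guide and not in the other is no difference between them. In bulk RNA, fewer cells with a transcript and less RNA per cell cannot be told apart.

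TRAC counts came without the rest of a T cell receptor. All 45 TRAV genes were at 0, and of 56 TRAJ genes only TRAJ58 (6 counts), TRAJ6 (3) and TRAJ48 (1) had any. The TRAJ models have a median length of 61 bases, shorter than the reads, so their low counts say little on their own. TRBC1, TRBC2 and TRDC, the constant regions of the beta and delta chains, were at 0, with the same limit of 0.0172 CPM. The CD3 genes, whose products carry the receptor to the cell surface, were at 0 in every library, and CD247, the zeta chain, measured 3.14 ± 0.793 CPM (SD, n = 3) in SCR1 and 2.17 ± 0.244 (SD, n = 6) in the KO libraries (log2 fold change -0.53 ± 0.21, SE, adjusted p = 0.0893). The summed T cell markers reached at most 1.05 CPM in a library.

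The gamma locus gave low counts of V genes. TRGV5, a gamma chain variable segment (chr7:38349355-38350022, minus strand), measured 0.407, 0.456 and 0.331 CPM in SCR1, 0.820, 0.486 and 0.434 in sgRNA_96, and 0.927, 0.579 and 0.713 in sgRNA_97. The KO libraries were higher than the top SCR1 value in 5 of 6 cases, and the log2 fold change of 0.71 ± 0.39 (SE) had an adjusted p of 0.225. TRGV5 reached the filter level in 0 of 3 SCR1 libraries and in 4 of 6 KO libraries. It was thus tested by way of the group in which it was higher, and nothing is read from this direction. TRGV3, with 94.0% identity to TRGV5, ranged from 0 to 0.285 CPM in SCR1 and from 0.0662 to 0.684 in the KO libraries. Both overlap the antisense gene TRG-AS1. The gamma constant genes TRGC1 and TRGC2 held 4 and 2 counts in all.

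The light chain loci held little RNA. IGKC, the kappa constant gene, was at 0, and the lambda constant genes IGLC1, IGLC2 and IGLC3 summed to 1.56 to 4.17 CPM in SCR1 and 0.380 to 2.996 in the KO libraries. These copies share most of their sequence: IGLC2 and IGLC3 are 99.1% identical, IGLC1 and IGLC2 92.9%. Salmon assigned fractional counts to all of them. IGLC3, too low to test, ranged from 0.171 to 0.306 CPM in SCR1 and from 0 to 0.252 in the KO libraries, and IGLC7 was at 0.

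IGLC2 (chr22:22900976-22901437, plus strand) measured 1.19, 0.741 and 2.08 CPM in SCR1, 0.252, 0.924 and 0.380 in sgRNA_96, and 0.199, 0.474 and 0.238 in sgRNA_97. In 5 of 6 KO libraries it was below the lowest SCR1 value, and sgRNA_96 replicate 3 lay inside the SCR1 range. Over both guides the gene fell to 0.319 times the control (log2 fold change -1.65 ± 0.45, SE, adjusted p = 0.0156). For sgRNA_96 it was -1.32 ± 0.52 (SE, adjusted p = 0.114) and for sgRNA_97 -2.09 ± 0.57 (SE, adjusted p = 0.0223). It reached the filter level in 3 of 3 SCR1 libraries and in 1 of 6 KO libraries, so it too was tested by way of its higher group. The call over both guides was lost without SCR1 replicate 1 (adjusted p = 0.0525) or SCR1 replicate 4 (adjusted p = 0.148).

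IGLC1 (chr22:22895375-22895834, plus strand) overlaps IGLL5 on the same strand, a gene for a protein like a surrogate light chain whose transcript ends in the lambda constant exon. IGLC1 measured 1.29, 0.627 and 1.84 CPM in SCR1 and from 0 to 1.95 in the KO libraries (log2 fold change -0.41 ± 0.58, SE, adjusted p = 0.665). IGLL5 measured 14.3, 14.2 and 16.8 CPM in SCR1, 8.20, 6.91 and 9.22 in sgRNA_96, and 5.23, 7.47 and 7.25 in sgRNA_97. It fell by 1.03 on the log2 scale, with an SE of 0.13 and an adjusted p of 5.92e-05.

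Summed over IGLL5 and the 3 constant genes, which does not depend on how reads were divided among them, the level was 17.1, 15.7 and 21.0 CPM in SCR1 and between 6.16 and 9.92 in the KO libraries, with a KO median of 9.23. No KO library reached the SCR1 range, where KO and SCR1 values did not overlap in 20.3% of all genes tested. The sum is a description, without a test.

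**Figure D3:**
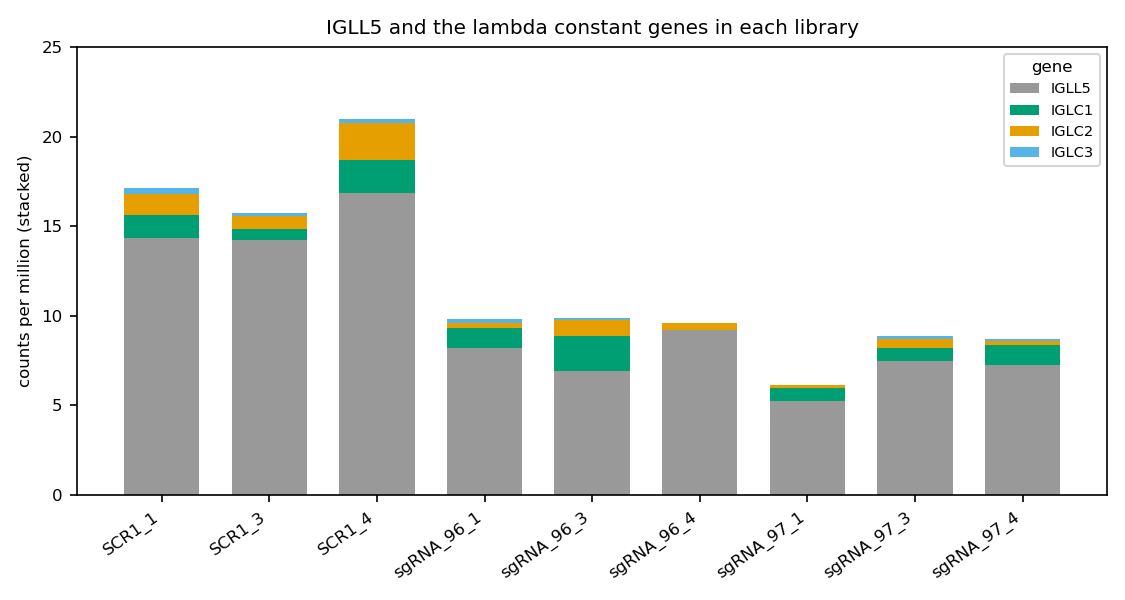
Stacked CPM (vertical axis, from 0) of IGLL5, IGLC1, IGLC2 and IGLC3 in each of the 9 libraries, SCR1 at the left. The SCR1 stacks reach 15.7 to 21.0 and the KO stacks 6.16 to 9.92, and IGLL5 makes up the larger part of each.

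IGLV5-52, the lambda variable member (chr22:22318727-22319226, plus strand), measured 0.951, 0.171 and 0 CPM in SCR1, 1.51, 0.778 and 0.977 in sgRNA_96, and 0.728, 0.526 and 0.653 in sgRNA_97. SCR1 replicate 1 stood inside the KO range and the other SCR1 libraries below it. Its log2 fold change was 1.04 ± 0.63 (SE, adjusted p = 0.269). Without SCR1 replicate 1 it was 3.33, with an adjusted p of 0.0175. IGLV5-52 reached the filter level in 5 of 6 KO libraries and in 1 of 3 SCR1 libraries, which was SCR1 replicate 1. Without that library it was tested only by way of the KO group, so nothing is read from this p. A noncoding gene, ENSG00000286129, overlaps it on the same strand. The orphon IGKV1OR2-108, a kappa V segment on chromosome 2, was too low to test and ranged from 0 to 0.0945 CPM in SCR1 and from 0.0630 to 0.416 in the KO libraries.

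Each guide alone gave fewer calls. Against SCR1, sgRNA_96 called 1 member higher (IGHV3-72) and none lower, where 5.78% of all genes were higher and 5.41% lower. For sgRNA_96, 4 of the 10 had an unadjusted p under 0.05, and DESeq2 called 2. The guide sgRNA_97 called 1 higher (IGHV3-72) and 2 lower (TRAC and IGLC2), where 7.35% of all genes were higher and 7.76% lower. The sgRNA_97 count was 1 when sgRNA_97 replicate 1, sgRNA_97 replicate 4, SCR1 replicate 1 or SCR1 replicate 4 was left out. No member differed between sgRNA_97 and sgRNA_96 in edgeR or in DESeq2 and none had an unadjusted p under 0.05, where 0.0208% of all genes were called.

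**Figure D4:**
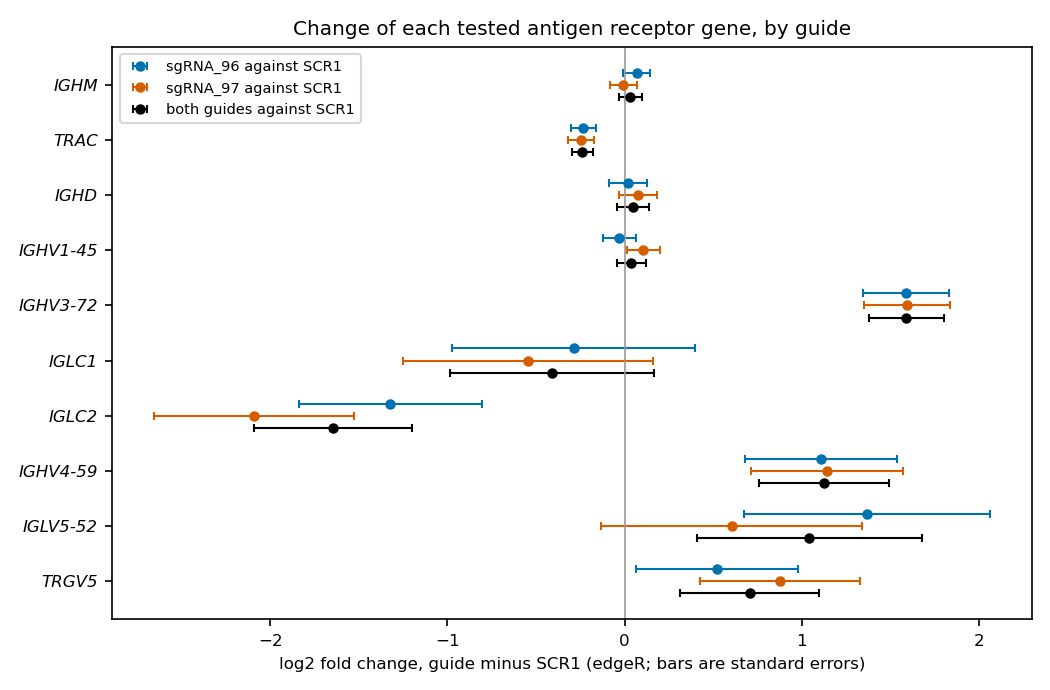
The log2 fold change against SCR1 (horizontal axis) of the 10 tested members for sgRNA_96, sgRNA_97 and both guides together. Points are edgeR's estimates and bars standard errors. IGHV3-72 sits at 1.59 for each guide, TRAC at -0.23 and -0.25, and IGLC2 at -1.32 and -2.09 with wide bars.

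Summed markers of other cells did not overlap between the groups for plasma, myeloid and NK cells. Over all genes tested, KO and SCR1 values did not overlap in 20.3%. The 6 plasma cell markers summed to 922 to 957 CPM in SCR1 and 1083 to 1168 in the KO libraries, mostly XBP1 and MZB1. Of the 6, 4 averaged at least 1 CPM, JCHAIN averaged 0.0721 and TNFRSF17 was at 0. The 4 myeloid markers summed to 8.60 to 9.67 CPM in SCR1 and 12.97 to 17.9 in the KO libraries, with 2 of 4, CD33 and MPO, at or above 1 CPM and none at 0 throughout. Of 4 NK cell markers only NKG7 was detected, at 9.12 to 9.98 CPM in SCR1 and 7.26 to 8.37 in the KO libraries, with NCAM1, KLRD1 and NCR1 at 0. The part of these in the changes of IGHV3-72, IGHV4-59, IGLC2 and TRAC was not tested.

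Genes that rearrange, pair with or regulate antigen receptors changed in both directions. Of a list of 41, 36 were tested, of which 6 rose and 9 fell, with a median log2 fold change of -0.08. The share of all genes called higher was 10.1% and lower 10.6%, as above.

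The recombinase and the nucleotide-adding enzyme rose. RAG1 measured 256, 293 and 276 CPM in SCR1 and 442 to 528 in the KO libraries, a 1.82-fold rise (log2 fold change 0.87 ± 0.06, SE, adjusted p = 1.09e-07). RAG2 (log2 fold change 0.25 ± 0.05, SE, adjusted p = 0.00143) and DNTT, the terminal transferase that adds bases at the joints (0.26 ± 0.04, SE, adjusted p = 0.000328), rose by less. In all of them every KO library lay above every SCR1 library, where KO and SCR1 values did not overlap in 20.3% of all genes tested. The RAG2 call was lost in the limma fit without a filter (adjusted p = 0.0691).

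Of 10 genes of end joining, which seals the cut segments, 1 rose and 3 fell. Over all genes tested, 10.1% were called higher and 10.6% lower, so nothing is read from these counts. The ligase LIG4 rose, with a log2 fold change of 0.48 ± 0.08 (SE, adjusted p = 0.000941), and its partner XRCC4 fell by 0.31 (SE 0.10, adjusted p = 0.0454). The LIG4 call was lost in the limma fit without a filter (adjusted p = 0.0957). The XRCC4 call was lost under 10 of 17 alternatives, 6 of them leaving out 1 library (sgRNA_96 replicate 1, 3 or 4, sgRNA_97 replicate 4, SCR1 replicate 3 or SCR1 replicate 4), with adjusted p up to 0.221. The end-binding Ku subunits XRCC6 and XRCC5 fell by 0.22 and 0.14 (adjusted p = 0.00131 and 0.0192). The XRCC5 call was lost under 7 of 17, with any 1 SCR1 library or sgRNA_96 replicate 3 left out (adjusted p from 0.0511 to 0.0755) and in all limma fits. UNG, a uracil glycosylase of base excision repair, fell by 0.29 (SE 0.04, adjusted p = 0.000292).

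The surrogate light chain genes VPREB1 and IGLL1 were not called in the main fit, and the related genes VPREB3 and IGLL5 were called in opposite directions. VPREB3, related to VPREB1, rose with a log2 fold change of 0.29 ± 0.07 (SE, adjusted p = 0.00744), and IGLL5 fell as given above. The VPREB3 call was lost in the limma fit without a filter (adjusted p = 0.0855). VPREB1 (191 ± 12.5 CPM in SCR1, SD, n = 3, and 212 ± 13.8 in KO, SD, n = 6) and IGLL1 (923 ± 59.8 and 813 ± 72.4) did not pass the test, with adjusted p of 0.0730 and 0.0543. DESeq2 called both (adjusted p = 0.0435 and 0.0286). VPREB1 was also called without sgRNA_96 replicate 4 (0.0213). IGLL1 was called under 4 of 17 alternatives in all, among them no filter on low counts (0.00181) and without sgRNA_96 replicate 1 (0.0156). CD79A and CD79B, the signalling subunits that carry the mu chain, had log2 fold changes of -0.10 ± 0.08 and -0.14 ± 0.07 (SE, adjusted p = 0.435 and 0.205).

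Of 15 transcription factors that bind antigen receptor enhancers or promoters, 1 rose and 4 fell, where 10.1% of all genes were called higher and 10.6% lower. IKZF3, which rises during pre-B cell maturation, went from 6.19 ± 0.546 CPM (SD, n = 3) to 11.4 ± 1.19 (SD, n = 6), a log2 fold change of 0.89 ± 0.12 (SE, adjusted p = 9.07e-05). In the limma fits the change of IKZF3 was 0.46 to 0.79, and the call was lost in the fit without a filter (adjusted p = 0.0650). RUNX1 fell by 0.37, IRF4 by 0.28, TCF3 by 0.24 and IKZF1 by 0.19 (adjusted p = 0.000196, 0.00419, 0.00986 and 0.00903). The call of TCF3 was lost without SCR1 replicate 4 (0.0721) and in the limma fits (up to 0.395), that of IRF4 in the limma fits (up to 0.0988), and that of IKZF1 without SCR1 replicate 1 (0.0566) and in 1 limma fit (0.0669). PAX5, EBF1 and YY1 did not pass the test, with log2 fold changes of -0.02, -0.09 and 0.01. TCF3 counts include transcripts of the fusion as far as they match TCF3 exons.

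**Figure D5:**
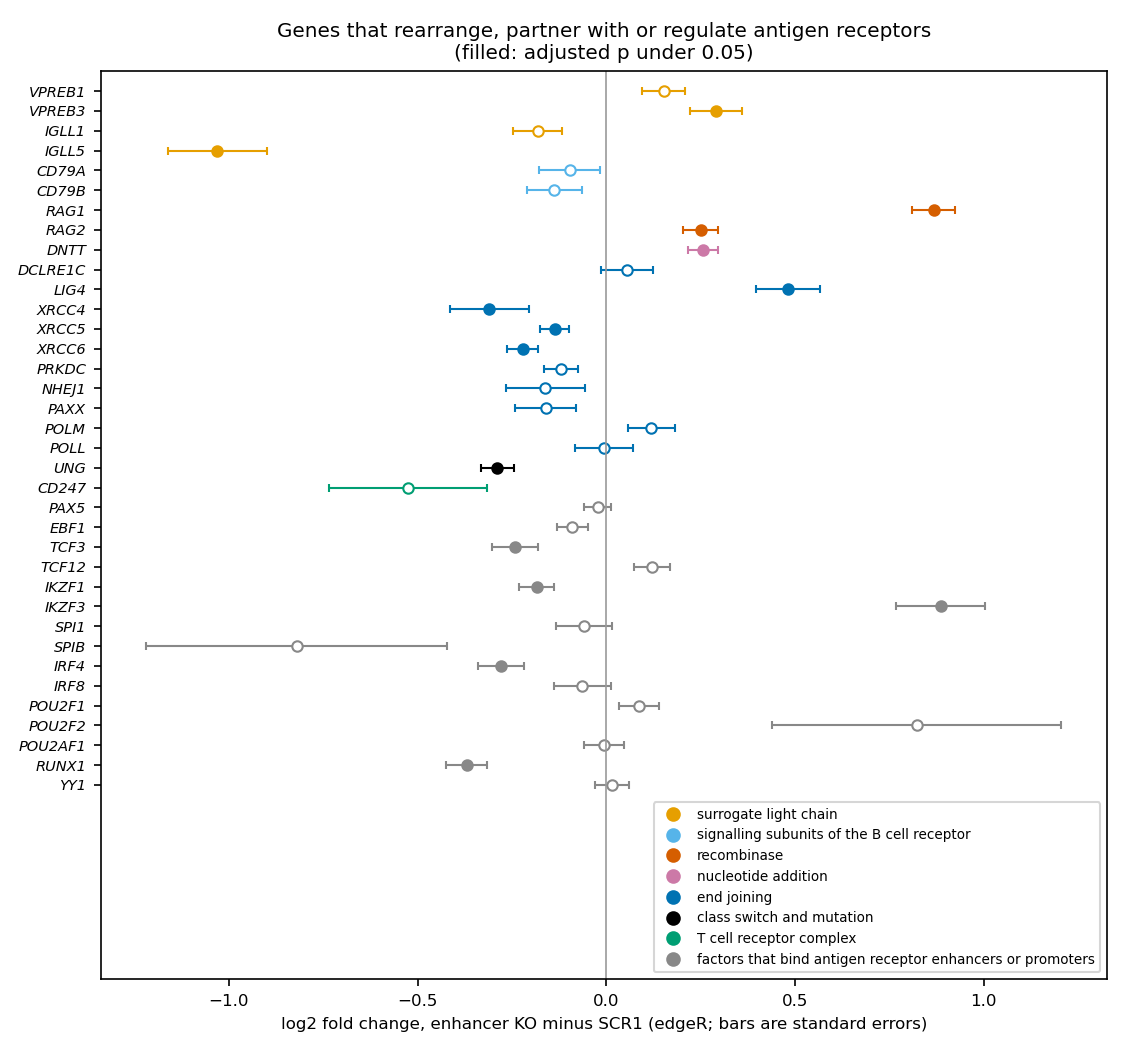
The log2 fold change of MEF2C-enhancer KO against SCR1 (horizontal axis) for the 36 tested genes that rearrange, pair with or regulate antigen receptors, coloured by role, with standard errors as bars. Filled points have an adjusted p under 0.05. Of the filled points, IKZF3, RAG1 and LIG4 lie farthest to the right and IGLL5 farthest to the left.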

How the data were processed

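RNA of 9 HAL-01 libraries was sequenced after poly(A) selection. Per the methods, the authors trimmed reads with TrimGalore, aligned them to hg38 with STAR and quantified transcripts with Salmon (version 1.10.1 in the submitters' processing notes). The authors deposited estimated counts per transcript, not normalized, and TPM, scaled by effective length. All 252835 transcript identifiers matched GENCODE release 44, although the authors' release is not given in the sources used here.

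Counts were summed per gene, rounded, filtered with filterByExpr (minimum count 10), scaled by TMM and tested in edgeR 4.0.16 (R 4.3.3; glmQLFit and glmQLFTest), with Benjamini-Hochberg adjustment over 14436 genes at 0.05. The main fit compared the 6 KO libraries with the 3 SCR1 libraries. Each guide was then tested in a fit with 3 groups. The SE is the log2 fold change divided by the square root of F.

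Identity was computed from pairwise alignments (Biopython), and recombination signals were read from hg38 after each V gene. Permutation tests used scipy. Alternatives were DESeq2 1.42.0, its size factors, no filter, limma 3.58.1 on log2 TPM with 2 pseudocounts, a replicate block and leaving out each library.

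The text names all 15 members, every constant gene among them, members called in any comparison, genes beside the 20-count limit, and listed partner genes that were called or are RAG1, RAG2, DNTT, VPREB1, IGLL1, CD79A, CD79B or CD3 genes. IGHV5-78, CD247, PAX5, EBF1 and YY1 were named after their values were seen. The members and lists were chosen with earlier results of these data known. The limit given for a count of 0 covers counting error only.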

Additional observations from a re-analysis of the deposited data

Results flagged for a closer look

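In the 6 KO libraries, 11 values (the CPM of 10 members and the IGHM membrane share) were screened for a library far from the others by Dixon's ratio of gap to range against its 95% critical value. None exceeded it. IGLC2 came closest, with a ratio of 0.621 for sgRNA_96 replicate 3 (0.924 CPM, the others 0.199 to 0.474). Chance would flag about 1 in 20 groups.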

How the results depend on the processing

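Of the 4 member calls, 1 held under every alternative. IGHV3-72 stayed called and higher under all 17 alternatives, with log2 fold changes from 1.44 to 1.72 and adjusted p of at most 0.00154. TRAC was lower under all 17 and lost its call with limma on log2(TPM + 1) without a filter (adjusted p = 0.0527). IGLC2 was lower under all 17 and lost its call under 3, and IGHV4-59 was higher under all 17 and lost its call under 9. Leaving out both replicate 1 KO libraries, chosen after seeing the data, gave 3 member calls of 9 tested, with IGHV4-59 at an adjusted p of 0.0537. Without a filter, limma on log2(TPM + 1) called 1 member and 6 listed partner genes for both guides and 1 member for sgRNA_97; more genes were tested there. For sgRNA_96, DESeq2 and the fit without a filter each called 2 members. Leaving out 1 library gave 2 to 4 member calls for both guides (lowest without SCR1 replicate 4), 1 to 2 for sgRNA_96 (2 without sgRNA_96 replicate 1 or SCR1 replicate 1) and 1 to 2 for sgRNA_97. Of the 15 partner genes called, 6 stayed called under every alternative and 9 lost the call under at least 1. The 4 changes of sign among genes were near 0 and in uncalled genes: IGHM at -0.0035 without sgRNA_96 replicate 1 and -0.0077 without SCR1 replicate 3, and IGHD at -0.015 and IGHV1-45 at -0.0021 without SCR1 replicate 4. Their highest values were 0.083 for IGHM (without SCR1 replicate 1), and 0.10 for IGHD and 0.080 for IGHV1-45 (both without the replicate 1 KO libraries). The difference in IGHM membrane share ranged from -0.914 to 2.46 percentage points when 1 library was left out, reversed without SCR1 replicate 3. The cause of these changes was not tested.

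Same-numbered libraries did not deviate together (correlations from -0.0844 to 0.0655 over 9 pairs), so the numbers were not taken to pair the libraries; with a replicate block 4 members were called for both guides, 1 for sgRNA_96 and 3 for sgRNA_97, as without it, and 15 partner genes. Depth limits the low members: 5 of 15 could not be tested, and IGLC2 and IGHV4-59 rest on 139 counts each over 9 libraries.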
